A study of Rattus norvegicus with 13 samples.

Results

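miR-135a and miR-135b are the 2 rat microRNAs (miRNAs) of the miR-135 family among the 350 miRNAs on an Agilent rat miRNA array, and they were found by their names, rno-miR-135a and rno-miR-135b, on all 13 arrays. They were chosen by their measured log2 levels, which differed between cell types on these same arrays, so those levels are given as a description, without a test. The 4 kinds of primary culture were made from rat cortex taken on postnatal day 1. The neurons (n = 3) were kept in Neurobasal medium with cytosine arabinoside, which kills dividing cells. Astrocytes (n = 4) were kept in MEM with horse serum and shaken overnight to detach other cells. Oligodendrocytes (n = 3) and microglia (n = 3) were collected from the supernatant of mixed cultures, the former plated on poly-lysine. The labels give 10 days in vitro for all samples, whereas the protocol has microglia collected at 7 days. The labels give no genotype or transgene, and the study calls the samples of a group biological replicates.

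miRNAs are short RNAs that guide the silencing machinery to messenger RNAs, chiefly through the seed, bases 2 to 8 from the 5′ end. miR-135a and miR-135b are known in human colorectal cancer cells for repressing APC, a brake on Wnt signalling. In mouse neurons they repress Klf4, a transcription factor that limits axon growth, and in mouse serotonergic neurons miR-135a represses the serotonin transporter.

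The mature sequences are shown because the arrays had to separate them by 1 base. They are the RefSeq sequences on build GRCr8, read 5′ to 3′, with the seed in capitals. miR-135a lies at chr7:28499221-28499243 on the minus strand and miR-135b at chr13:46191033-46191055 on the plus strand.
miR-135a: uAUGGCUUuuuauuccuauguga
miR-135b: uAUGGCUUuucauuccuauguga
Both have 23 bases, and the only difference is U11C, counted from 1 at the 5′ end with the base of miR-135a first, which lies outside the seed. Among 724 mature rat miRNAs in RefSeq, these 2 alone carry the seed AUGGCUU. The other miRNAs of the array were far from them in sequence. miR-204 and miR-21 were 8 single-base substitutions, insertions or deletions from miR-135b, and miR-140 and miR-204 were 9 from miR-135a. No other name was closer, though further names may tie. Of the array's 269 name stems 238 could be matched to RefSeq. The closer arm of each was taken, whether or not the array carried that arm.

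The hairpin precursors are shown because the array also carried miR-135a*, the strand cut from the other arm of the miR-135a hairpin. Mature miR-135a or miR-135b is in capitals. Mir135a lies at chr7:28499166-28499265 on the minus strand and Mir135b at chr13:46191018-46191114 on the plus strand.
Mir135a: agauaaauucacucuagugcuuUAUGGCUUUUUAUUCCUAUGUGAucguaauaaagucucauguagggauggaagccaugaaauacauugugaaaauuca
Mir135b: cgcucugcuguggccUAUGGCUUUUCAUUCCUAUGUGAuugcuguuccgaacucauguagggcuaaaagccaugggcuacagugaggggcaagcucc
Mir135a lies within the span of a long noncoding RNA gene, LOC102548260 (chr7:28498101-28591490). Mir135b lies within the spans of 2 genes annotated as protein-coding, Lemd1 (chr13:46183860-46250105) and Blacat1 (chr13:46189091-46202506). The annotation used gives neither strand nor exons for these genes, so exonic and intronic positions were not assigned. No other miRNA gene lay within 50 kb of either hairpin (0 for both). The strand from the 3′ arm of Mir135a, at chr7:28499183-28499204 on the minus strand, has another seed, again in capitals.
miR-135a-3p: uGUAGGGAuggaagccaugaaa

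A level here is the log2 of a miRNA's signal divided by the 75th percentile, on the same array, of the 119 miRNAs that all 13 arrays detected, and errors are SD over arrays unless given as SE. No value was allowed below -8.04, which is the median, taken across arrays, of each array's dimmest detected miRNA. The summed miRNA intensity ran from 276438 to 514270 on neuron arrays, 147103 to 300152 on astrocyte arrays, 107624 to 185688 on oligodendrocyte arrays and 128614 to 160446 on microglia arrays. Detected miRNAs numbered 241 to 258, 160 to 208, 193 to 201 and 160 to 176 in the same order. Astrocyte array 3 had 528 outlier spots of 7000 and 160 detected miRNAs, against 131 to 376 outlier spots on the other arrays. Slide 1 held the neuron and oligodendrocyte arrays, and slide 2 those of astrocytes and microglia. In each pair of types other than these 2 same-slide pairs, slide and cell type cannot be told apart. Each culture was also checked against marker miRNAs of its own type. A summed level is the log2 of the sum of the markers' scaled signals, so the brightest markers weigh most in it. The summed level of 6 neuron markers was 4.32 to 4.45 in neurons against -0.82 to -0.66 in astrocytes, and that of 5 myeloid markers was 4.78 to 5.01 in microglia against -5.17 to -4.94 in neurons. The 4 oligodendrocyte markers summed to 2.84 to 3.64 in oligodendrocytes and 1.23 to 1.41 in astrocytes. The 6 astrocyte markers summed to 5.11 to 5.29 in astrocytes and 5.12 to 5.93 in microglia, so they did not set astrocytes apart from microglia. Astrocyte arrays also carried 4 of the 5 myeloid markers on every array, at a summed level of 0.89 to 0.94.

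miR-135a was highest in astrocytes, slightly lower in neurons, far lower in oligodendrocytes and not detected in microglia. Its level was -0.76, -0.73, -0.69 and -0.61 on astrocyte arrays 1 to 4 (mean -0.70 ± 0.06, n = 4). On neuron arrays 1 to 3 it was -1.32, -1.32 and -1.36 (mean -1.33 ± 0.02, n = 3). These groups did not overlap, and both were tight. On oligodendrocyte arrays 1 to 3 it was -5.21, -3.90 and -5.09 (mean -4.73 ± 0.73, n = 3), so array 2 stood above the other two. All 3 microglia arrays were at the floor, with total signals of 2.04, 1.86 and 2.06 intensity units and errors of 2.91, 2.69 and 4.13. No neighbouring groups in the order astrocytes, neurons, oligodendrocytes and microglia overlapped. In bulk RNA, fewer cells of a type and less RNA per cell cannot be told apart.

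miR-135b was highest in neurons only, and astrocytes and oligodendrocytes shared a low level. Its level was -1.24, -1.18 and -1.19 on neuron arrays 1 to 3 (mean -1.20 ± 0.03, n = 3). On astrocyte arrays 1 to 4 it was -4.92, -4.998, -5.14 and -4.85 (mean -4.98 ± 0.12, n = 4). Array 3, with its many outlier spots, was the astrocyte array on which miR-135b was not called detected, at a total signal of 46.5 with an error of 12.0. On the other 3 astrocyte arrays the total signal was 37.5, 31.3 and 71.0 with errors of 4.36, 4.16 and 6.55. Oligodendrocyte arrays 1 to 3 gave -5.45, -3.32 and -4.73 (mean -4.50 ± 1.09, n = 3), a range that enclosed all 4 astrocyte arrays. On the 3 microglia arrays miR-135b was again at the floor, with total signals of -0.17, 2.23 and 2.47 and errors of 3.55, 3.29 and 5.04. The neuron arrays lay above all others, the microglia arrays below all others, and the astrocyte and oligodendrocyte arrays overlapped.

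**Figure D1:**
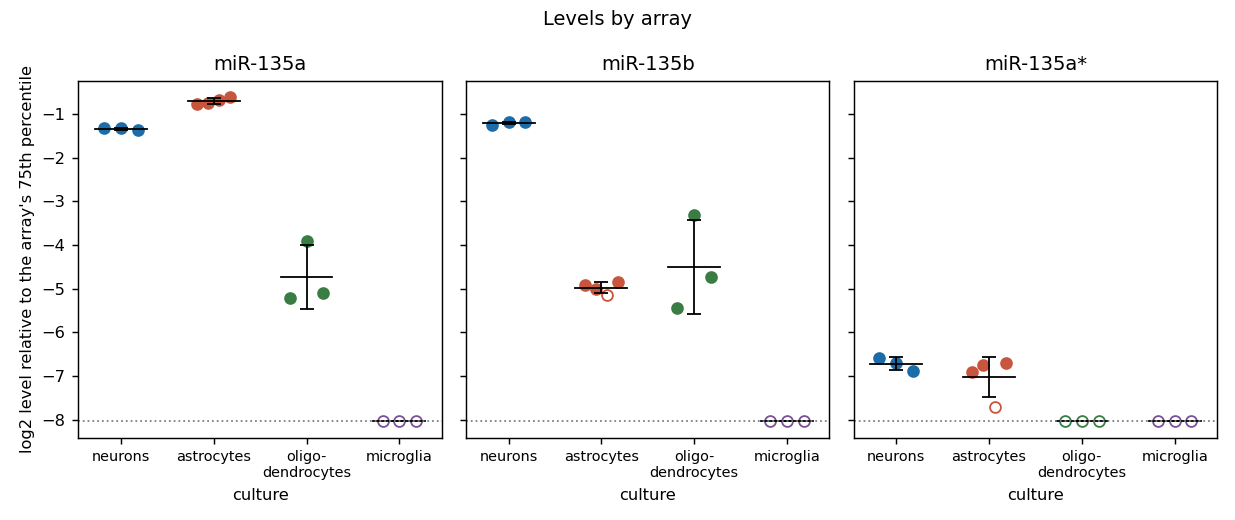
log2 level of miR-135a, miR-135b and miR-135a* on each of the 13 arrays (y axis, relative to the array's 75th percentile) by culture (x axis), with the mean and SD as bars, open circles for arrays without a detection call and a dotted line at the floor of -8.04. miR-135a is near -1 in both neurons and astrocytes, whereas miR-135b is at -1.20 in neurons and -4.98 in astrocytes, and neither was detected in microglia.

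In the pair of neurons and oligodendrocytes, which shared a slide, both members were about equally higher in neurons. miR-135a differed by 3.40 ± 0.264 (log2 ± SE, here and below with the spread shared over all 4 groups), or 10.5-fold. miR-135b differed by 3.30 ± 0.394, or 9.82-fold, and by 14.8-fold without oligodendrocyte array 2. The shared spread includes the microglia arrays, which were all at the floor. Fitted with neurons and oligodendrocytes only, the SE was larger, at 0.382 for miR-135a and 0.571 for miR-135b. The groups did not overlap for either member. Of the 268 tested miRNAs, 41.4% were at least 2-fold higher in neurons than in oligodendrocytes with no overlap, so meeting that rule was common. Normexp background correction, an alternative, subtracts the signal around each spot and then models the remaining background from the array's spot intensities. With it the differences were 2.10 and 2.10. With scaling to the 75th percentile over all miRNAs they were 2.39 and 2.29, while the median of all tested miRNAs went from 0.79 to -0.074.

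In the other same-slide pair, astrocytes and microglia, miR-135a was at least 86.3-fold higher in astrocytes, and miR-135b at least 4.45-fold. A bound is given because no microglia array detected either member, and it is computed against the lowest detected signals on those arrays. The share of tested miRNAs at least 2-fold higher in astrocytes than in microglia with no overlap was 23.1%. With normexp the difference of miR-135a was 2.75 in log2 and that of miR-135b turned to -0.049. For miR-135b the direction thus depended on the processing. Normexp was run with an offset of 50 and without the floor, and the median of all tested miRNAs went from -0.021 to -0.54.

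Across slides, the members parted between neurons and astrocytes. miR-135b was 13.7-fold higher in neurons (3.77 ± 0.368), where 38.8% of tested miRNAs met the 2-fold rule in that direction. miR-135a was 1.56-fold higher in astrocytes (-0.64 ± 0.247, neurons minus astrocytes), under the 2-fold mark that 16.4% of tested miRNAs passed in that direction. Fitted with neurons and astrocytes only, the SE was smaller, at 0.0703 for miR-135b and 0.0408 for miR-135a. Both directions held in all 8 alternatives of background, scaling, summary, source and floor, at 2.32 to 4.07 for miR-135b and -1.60 to -0.34 for miR-135a. The median difference of all tested miRNAs was 0.54 and moved to -0.28 with quantile normalization. Relative to that median, the difference ran from -1.32 to -0.65 for miR-135a and from 2.26 to 3.33 for miR-135b.

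The remaining pairs followed from these levels. miR-135a was 16.4-fold higher in astrocytes than in oligodendrocytes (4.04 ± 0.247), where 14.2% of tested miRNAs met the rule, and the difference was 2.69 with normexp. miR-135b was 1.39-fold higher in oligodendrocytes than in astrocytes with overlapping arrays (-0.48 ± 0.368, astrocytes minus oligodendrocytes), and the sign turned to 0.12 without oligodendrocyte array 2. Fitted with astrocytes and oligodendrocytes only, the SE was 0.335 for miR-135a and 0.503 for miR-135b. Against microglia, neurons were at least 55.5-fold higher for miR-135a and at least 60.8-fold for miR-135b, where 44% of tested miRNAs met the rule. These bounds hold for the processing used here: the log2 differences were 2.16 and 2.27 with normexp and 3.99 and 4.48 in the deposited table. Oligodendrocytes were at least 5.26-fold higher than microglia for miR-135a and at least 6.19-fold for miR-135b, where 23.9% met it. Without oligodendrocyte array 2 this last bound was 4.11-fold for miR-135b. With normexp the differences between oligodendrocytes and microglia were 0.060 and 0.17 in log2. Each member met the 2-fold rule in 5 of the 6 pairs, and the pair that missed it was neurons with astrocytes for miR-135a and astrocytes with oligodendrocytes for miR-135b.

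Oligodendrocyte array 2 was the highest of its group for both members. The summed level of the 6 neuron markers was 1.99 on that array against 0.06 and 0.53 on arrays 1 and 3, and all 6 were detected on each of the 3 arrays. The summed myeloid markers were 0.72 against -0.72 and -0.36, with 4 of 5 detected on each array and 1 on none, and the oligodendrocyte markers were 2.84 against 3.64 and 3.52. Over these 3 arrays miR-135a, miR-135b and the summed neuron markers had the same order, with array 1 lowest and array 2 highest. Among the neuron markers, miR-218 did not have it (-3.86, -3.87 and -3.83 on arrays 1 to 3). The order was not particular to neuron markers. The summed myeloid markers had it too, as did the summed astrocyte markers (3.02, 3.29 and 3.07 on arrays 1 to 3). The astrocyte markers were divided, however. miR-21 had this order (1.47, 2.34 and 1.65), as did miR-23a, whereas miR-24, miR-29a and miR-29b had the reverse order (miR-29b at 0.57, -0.19 and 0.50). miR-27a was highest on array 2 but lowest on array 3. So did the sum of the miRNAs of ependyma and choroid plexus named below (-3.91, -3.78 and -3.89), a small difference. Among these, miR-204 had the order (-5.37, -5.04 and -5.23), but miR-34b had the reverse (-5.28, -5.55 and -5.44). miR-34c was highest on array 3, and miR-449a was not detected. The summed oligodendrocyte markers had the reverse order, though among them miR-338* was lowest on array 3. Those of endothelial and mural cells were not detected. The part of these markers in the members' values was not tested.

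Marker levels were also set beside miR-135a in astrocytes. Astrocyte arrays had a higher level of miR-135a than neuron arrays, and their summed neuron markers were at -0.82 to -0.66, against 4.32 to 4.45 in neurons. The summed level of 4 miRNAs of ependyma and choroid plexus (miR-34b, miR-34c, miR-449a and miR-204) was, like miR-135a, highest in astrocytes and next in neurons, at 0.81 to 1.07 in astrocytes and -0.064 to 0.12 in neurons. It was -3.91 to -3.78 in oligodendrocytes, which overlapped the -4.27 to -3.53 of microglia. The 4 did not move as one. miR-449a stood at 0.34 ± 0.14 in astrocytes and -3.72 ± 0.05 in neurons, and miR-34b and miR-34c were also higher in astrocytes, whereas miR-204 was lower there than in neurons. All 4 were detected on every astrocyte and neuron array, while on the oligodendrocyte arrays 2 were detected on all and 1 on none. The part of these miRNAs and of the neuron markers in the level of miR-135a was not tested.

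The difference between the members within an array shows the parting of the pair without any scaling between arrays. Because 2 probe sets are never on the same scale, it is compared between types only. The log2 level of miR-135a minus that of miR-135b was -0.08, -0.14 and -0.17 on the neuron arrays (mean -0.13 ± 0.05, n = 3). On the astrocyte arrays it was 4.16, 4.26, 4.45 and 4.23 (mean 4.28 ± 0.12, n = 4). On the oligodendrocyte arrays it was 0.24, -0.58 and -0.36 (mean -0.23 ± 0.42, n = 3), which enclosed the neuron arrays. The ratio in astrocytes thus stood 4.41 in log2, or 21.2-fold, above that in neurons, and oligodendrocytes did not separate from neurons. On the microglia arrays both members were at the floor, which leaves no ratio. The change was 2.90 with normexp.

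The same change of ratio was computed for all 59 pairs of tested miRNAs that share a number and differ in a letter, from 23 families. The median size was 0.29. miR-135a with miR-135b ranked second at 4.41, behind miR-146a with miR-146b at 6.76 and ahead of miR-376a with miR-376c at 3.96. Pairs with a member near the floor are included, so their sizes may be cut short. Every pair within a family counts, so large families such as let-7 weigh more in the median. The members were chosen by their levels on these arrays, so these are ranks within the array and carry no test.

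**Figure D2:**
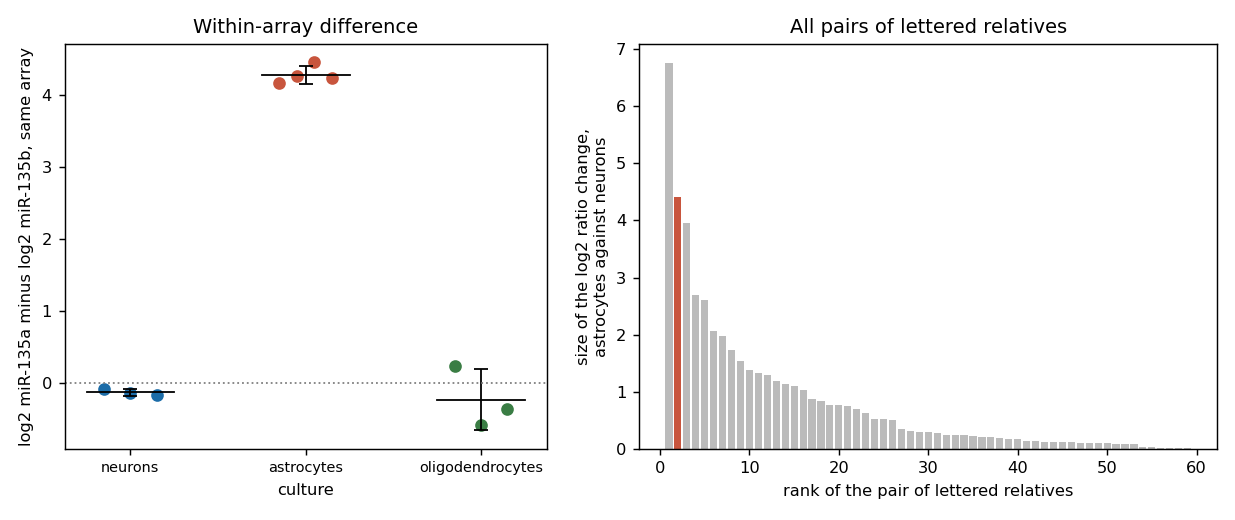
Left, log2 level of miR-135a minus that of miR-135b on each array (y axis) by culture (x axis), with mean and SD bars; right, size of the change of the same difference between astrocytes and neurons (y axis, log2) for 59 pairs of lettered relatives in order of size (x axis, rank), with the miR-135 pair in red. The astrocyte arrays lie at 4.16 to 4.45, apart from neurons and oligodendrocytes, and the miR-135 pair has the second bar.

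The probes of each member gave like differences among neurons, astrocytes and oligodendrocytes. miR-135a had 3 probes, whose targets of 21, 22 and 23 bases end together (rn4 positions within chr7:29077714-29077736, per the file headers), with 7, 7 and 6 spots. miR-135b had 2 probes of 22 and 23 bases (within chr13:45078807-45078829) with 10 spots each. Every probe covers position 11, where the members differ. The difference of neurons minus astrocytes was -0.66 to -0.58 over the probes of miR-135a and 3.74 to 3.81 over those of miR-135b. That of neurons minus oligodendrocytes was 3.08 to 3.44 and 3.28 to 3.31. Against microglia the probes of miR-135a spread widely, with oligodendrocytes minus microglia at 0.57 to 4.06 and astrocytes minus microglia at 4.23 to 8.17, as the 21-base probe was near the floor in oligodendrocytes (-7.47 ± 0.98) and at it in microglia. Those of miR-135b gave 3.30 to 3.65 and 2.80 to 3.19. Absolute brightness varied between the probes of miR-135a, from -4.39 for 21 bases to -0.38 for 23 bases in neurons, so a level belongs to its probes. Cross-hybridization between the members was not measured. In astrocytes, where miR-135a was brightest, the probes of miR-135b read -5.12 and -4.84.

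**Figure D3:**
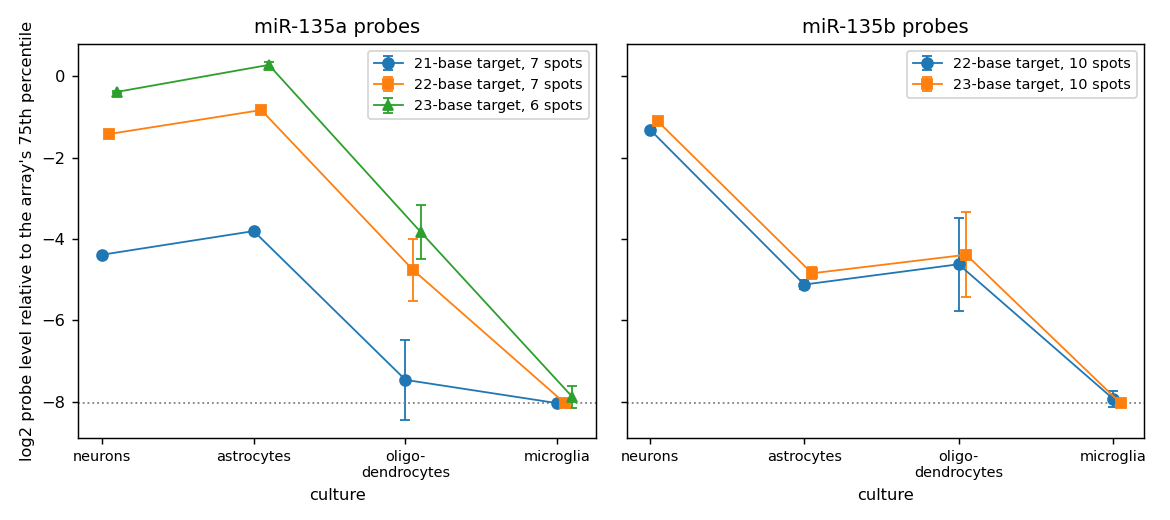
Mean log2 level of each probe (y axis, relative to the array's 75th percentile) in the 4 cultures (x axis), with SD bars, for the 3 probes of miR-135a and the 2 probes of miR-135b, and a dotted line at the floor. The probes of a member have the same order of types, and the probes of miR-135b drop between neurons and astrocytes while those of miR-135a do not.

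miR-135a*, the strand from the opposite arm of the miR-135a hairpin, was followed as a second product of the same precursor. It was named after its values were seen, and it was not used to choose the members. It was dim, at -6.58, -6.70 and -6.87 in neurons (mean -6.72 ± 0.15, n = 3). In astrocytes it was -6.91, -6.76, -7.70 and -6.70 (mean -7.02 ± 0.46, n = 4), with array 3 not detected. It was detected on 0 of 3 oligodendrocyte arrays and 0 of 3 microglia arrays. Neurons and astrocytes overlapped, as the 2 types with a high level of miR-135a, and their difference did not pass (0.30 ± 0.200 SE, limma with Benjamini-Hochberg adjustment, adjusted p = 0.192). Its direction turned with normexp (-0.24, adjusted p = 0.452) and the brightest probe (-0.17, adjusted p = 0.0661). It turned and passed as higher in astrocytes with the 75th percentile over all miRNAs (-0.66, adjusted p = 0.00819), quantile normalization (-1.15, adjusted p = 5.11e-09) and the deposited table (-0.56, adjusted p = 0.000512), so the data give no settled direction.

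Against the types without detection, the level of miR-135a* is a description, since it entered the tested set only through neurons and astrocytes. In neurons it was at least 2.10-fold above oligodendrocytes and at least 1.33-fold above microglia. In astrocytes it was at least 1.71-fold above oligodendrocytes and at least 1.08-fold above microglia. With normexp the log2 difference was -0.082 for neurons minus oligodendrocytes, 0.16 for astrocytes minus oligodendrocytes, and -0.62 and -0.37 for neurons and astrocytes minus microglia. Of its 4 probes, the one with a 16-base target stood clear of the floor, at -4.86 ± 0.09 in neurons and -4.81 ± 0.16 in astrocytes.

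The miRNAs most like each member were ranked by the root mean square of log2 differences over the 13 arrays, after each miRNA's mean over the 4 types was taken off. Closest to miR-135a was miR-204, known from the choroid plexus and the retinal pigment epithelium, at 1.12 against a median of 3.04 over the 267 other miRNAs. miR-204 stood at -0.24 ± 0.12 in neurons and -1.69 ± 0.04 in astrocytes, with -5.21 ± 0.16 in oligodendrocytes and -7.13 ± 1.57 in microglia, so unlike miR-135a it was lower in astrocytes than in neurons. Next came miR-497 (1.40), miR-125b-5p (1.51), let-7b (1.56) and miR-34b (1.60), a miRNA of ciliated cells. miR-135b was 23rd in this order, at 2.06.

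Closest to miR-135b was miR-335, which lies in an intron of the imprinted gene Mest, at 0.41 against a median of 2.29. It stood at -0.73 ± 0.09 in neurons, -3.99 ± 0.06 in astrocytes, -3.57 ± 0.88 in oligodendrocytes and at the floor in microglia. Its means thus had the order of those of miR-135b in all 4 types, though the astrocyte and oligodendrocyte arrays of miR-135b overlapped. Of the next miRNAs below, miR-598-3p, miR-137 and miR-129 had the same order of means, and miR-497 did not. The next were miR-598-3p (0.88), miR-137 (0.91), miR-497 (0.93) and miR-129 (0.95), and miR-137 and miR-129 are among the neuron markers. miR-135a was 105th. All these values share the 13 arrays and their scaling.

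**Figure D4:**
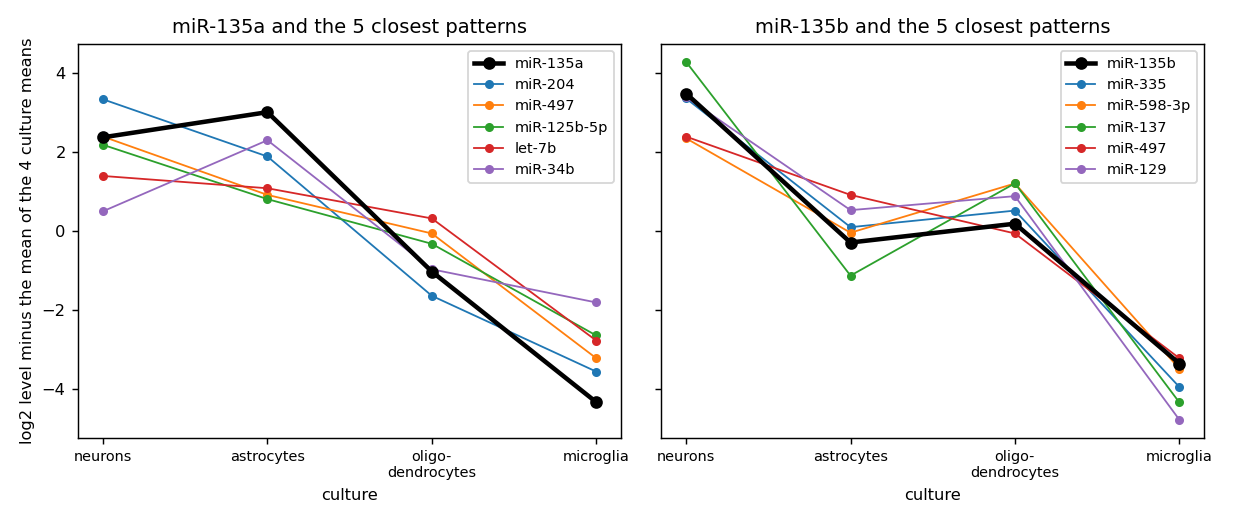
Mean log2 level in each culture minus the mean over the 4 cultures (y axis) by culture (x axis), for miR-135a (left) and miR-135b (right) in black with the 5 miRNAs closest to each in colour. The black line for miR-135a peaks in astrocytes, whereas that for miR-135b peaks in neurons and runs with miR-335.

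The members have a reported role in axon growth in mouse, so 16 other miRNAs with reported roles in growth, guidance or upkeep of axons were set beside them. All 16 were on the array and 15 were tested, as miR-182 was detected nowhere. Between neurons and astrocytes, where the members parted, 8 of the 15 were higher in neurons, 6 were higher in astrocytes and 1 did not pass (limma with Benjamini-Hochberg adjustment, here and below). Of all tested miRNAs 56% and 25.4% were higher in these directions. The list's median was 0.72, against 0.54 over all tested miRNAs. miR-132, which promotes axon and dendrite growth, was at 0.10 ± 0.07 in neurons (n = 3) and -3.87 ± 0.10 in astrocytes (n = 4), a size of change near that of miR-135b (adjusted p = 0.00048). miR-9, a brain-enriched miRNA that acts on the microtubule protein Map1b in mouse axons, was higher in neurons by less, at 4.22 ± 0.05 and 3.49 ± 0.05 (adjusted p = 3.98e-07). miR-21, raised in reactive glia, was lower in neurons, at -0.96 ± 0.02 and 4.27 ± 0.11 (adjusted p = 7e-09). miR-16 did not pass, at 1.60 ± 0.03 and 1.65 ± 0.05 (adjusted p = 0.459). The scaling mattered here. Of all calls, 150 were higher in neurons and 68 in astrocytes, against 85 and 118 with the 75th percentile over all miRNAs. That scaling also took the difference of miR-135b from 3.77 to 2.81. A shift of that size exceeds the miR-9 difference of 0.72, so the direction of miR-9 depends on the scaling. Under it 12 of the 15 list members passed, and their directions were not counted.

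Between neurons and oligodendrocytes, 10 of the 15 were higher in neurons, 4 were higher in oligodendrocytes and 1 did not pass, against 58.2% and 19.8% of all tested miRNAs in these directions. The list's median was 1.31, and that of all tested miRNAs 0.79. miR-138, which restrains dendritic spine growth in rat neurons, was higher in oligodendrocytes, at -1.37 ± 0.13 in neurons (n = 3) and -0.72 ± 0.17 in oligodendrocytes (n = 3; adjusted p = 0.0146). miR-132 was higher in neurons, and its oligodendrocyte arrays read -5.24, -3.13 and -4.50, again with array 2 highest, as for both members (adjusted p = 0.00039). All calls split 156 to 53 in favour of neurons, against 85 to 104 with the 75th percentile over all miRNAs. Between astrocytes and microglia, 6 were higher in astrocytes, 5 in microglia and 4 did not pass, against 29.9% and 35.8% of all tested miRNAs. The list's median was 0.52, and that of all tested miRNAs -0.02. miR-9 was in this pair like the members, at 3.49 ± 0.05 in astrocytes and -5.41 ± 0.07 in microglia (adjusted p = 1.59e-16). All calls split 80 to 96, against 38 to 85 with normexp and 94 to 45 without scaling.

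In the 3 remaining pairs the list was divided as well. Between neurons and microglia 7 of the 15 were higher in neurons, 6 in microglia and 2 did not pass, against 52.2% and 31% of all tested miRNAs. All calls in that pair split 140 to 83, against 82 to 117 with normexp and 165 to 46 without scaling. Between astrocytes and oligodendrocytes 7 were higher in astrocytes, 5 in oligodendrocytes and 3 did not pass, against 25.7% and 30.6%. Between oligodendrocytes and microglia 4 were higher in oligodendrocytes, 7 in microglia and 4 did not pass, against 32.1% and 29.5%. All calls in that pair split 86 to 79, against 37 to 68 with normexp and 95 to 51 without scaling. miR-338, an oligodendrocyte marker that in rat axons acts on the messenger RNA of a mitochondrial protein, stood at 2.53 ± 0.57 in oligodendrocytes and -3.15 ± 0.17 in microglia (adjusted p = 1.39e-09).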

How the data were processed

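Total RNA (100 ng per sample) was labelled with Cy3 and hybridized to 13 Agilent 1-colour arrays. The scans were read with Agilent Feature Extraction 9.5.3.1, per the file headers, and the deposited files hold a background-subtracted intensity for each spot and a total signal with a detection call for each miRNA, with probe positions on build rn4. The deposited series table holds log2 values whose normalization is not stated in the sources used here. It served as an alternative.

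Outlier spots were dropped, the rest averaged per probe and then per miRNA. Each array was scaled to the 75th percentile of the 119 miRNAs that all arrays detected, with a floor at 0.38% of it, before log2. Tests covered the 268 miRNAs detected on 3 or more arrays, while 69 were never detected. Where no array of a group detected a miRNA, the fold against it is a lower bound, taken against the mean of that group's dimmest detected log2 signals. All arrays were fitted together with limma 3.58.1 in R 4.3.3 (lmFit, eBayes), with Benjamini-Hochberg adjustment and a threshold of 0.05. A p-value sets a difference of means against the spread between arrays within groups, shared over all groups and drawn by eBayes toward that of other miRNAs. A group held at the floor adds no spread, and the number of arrays limits the precision. Further software was matplotlib 3.10.9, pandas 2.3.3 and numpy 2.4.6 under Python 3.11.15. The limma fit was run on simulated data for neurons minus astrocytes, with normal noise of equal SD in all types and no floor. It recovered 73.3% of 30 changes of 1 in log2 and 100% of 30 changes of 2, and called 0% of 208 unchanged miRNAs. The real data differ, as some groups were at the floor and the spread differed between types.

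The members, the marker and axon-growth lists and the tests were chosen with earlier results of these data known. Named miRNAs were the members, the 5 closest patterns for each, the axon-growth list, the markers and the closest sequences. miR-135a* and the other lettered pairs were added after their values were seen. The alternatives tried for the signal were the deposited table, the brightest probe, the total signal per miRNA, normexp (offset 50) and a floor at the 5th percentile. Those for scaling were none, quantile, and a percentile of all miRNAs. Those for the fit were a stricter filter and no filter, a robust trended eBayes, 2 groups at a time, a replicate block and dropping each array. Same-numbered arrays did not deviate together, so the numbers were not taken as pairs.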

Additional observations from a re-analysis of the deposited data

How the results depend on the processing

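In log2, for neurons minus oligodendrocytes, miR-135a (3.40) was 2.10 with normexp, 2.39 with the 75th percentile over all miRNAs, 2.68 with quantile normalization and 2.22 in the deposited table, and 3.16 to 3.82 when single arrays were left out. miR-135b (3.30) was 2.10 with normexp, 2.29 with the 75th percentile over all miRNAs and 2.42 in the deposited table, and 2.82 to 3.89 without single arrays. For astrocytes minus microglia, limited by what the microglia arrays could detect, miR-135a (7.34) was 2.75 with normexp, 7.23 with the 75th percentile over all miRNAs, 7.55 with quantile normalization, 7.57 without scaling, 7.27 with the total signal, 7.13 with the brightest probe, 5.34 in the deposited table and 8.13 with the lower floor, and 7.31 to 7.36 without single arrays. miR-135b (3.06) reversed with normexp (-0.049) and was 2.95, 3.43, 3.30, 2.01, 1.82 and 3.84 under the last alternatives in that order, the total signal left out, and 3.02 to 3.12 without single arrays. The count of pairs apart for miR-135b fell from 5 to 3 with normexp, and was 5 for both members without any single array. The change of the within-array difference between astrocytes and neurons (4.41) was 2.90 with normexp and 4.01 in the deposited table, and 4.35 to 4.45 without single arrays. That between astrocytes and oligodendrocytes (4.51) was 2.91 and 3.82, and 4.34 to 4.75. That between oligodendrocytes and neurons (-0.10) reversed to 0.081 with quantile normalization, to 0.19 in the deposited table and to 0.071 without oligodendrocyte array 2, and was -0.34 at the lowest without single arrays. The difference of miR-135b between astrocytes and oligodendrocytes (-0.48) reversed to 0.12 without that array, and was -0.95 at the lowest. miR-135a*, neurons minus astrocytes (0.30), reversed to -0.24 with normexp, -0.66 with the 75th percentile over all miRNAs, -1.15 with quantile normalization, -0.17 with the brightest probe and -0.56 in the deposited table. With normexp it also reversed for neurons minus oligodendrocytes (-0.082), neurons minus microglia (-0.62) and astrocytes minus microglia (-0.37), and with the 75th percentile over all miRNAs its differences of neurons from oligodendrocytes and from microglia were 0.25. The cause of these changes was not tested.

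With detection required on all arrays, 9 of the axon-growth list were left, of which 8 passed between neurons and astrocytes (14 before), 8 between neurons and oligodendrocytes (14), 8 between neurons and microglia (13) and 7 between oligodendrocytes and microglia (11). Fewer miRNAs were tested there, and the members drop out. Without single arrays, between 10 and 14 list members passed, depending on the pair. Over all miRNAs, calls fell with normexp from 218 to 134 between neurons and astrocytes, from 209 to 131 between neurons and oligodendrocytes, from 151 to 75 between astrocytes and oligodendrocytes (100 without scaling) and from 165 to 105 between oligodendrocytes and microglia, and detection on all arrays left 89 to 101 per pair. The split of calls between neurons and astrocytes was 94 to 126 with quantile normalization and 95 to 127 in the deposited table, and between neurons and oligodendrocytes 101 to 102 and 101 to 103. With the replicate number as a block, which rests on the number alone, miR-135a was -0.61 and miR-135b 3.81 for neurons minus astrocytes, and no count of list members moved by over 1.5 times. Same-numbered arrays had a median correlation of deviations of 0.000867 over 18 pairs, from -0.339 to 0.202.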
